A study of Mus musculus with 30 samples.

Results

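The 40 genes described here are cell cycle and DNA replication genes, chosen by symbol from a list of members and all found among the 24062 symbols of each count table. They fall into 12 replication genes (Mcm2 to Mcm7, Cdc6, Cdt1, Pcna, Rrm1, Rrm2 and Tyms), 3 genes of G1/S control (Ccne1, Ccne2 and E2f1) and 25 genes of mitosis, from Mki67, Top2a and Cdk1 to the kinesins, centromere proteins and Foxm1. All 40 passed the filter on low counts in both tissues. RNA of whole terminal ileum and of the post-caval lung lobe was sequenced from C57bl/6 mice that overexpress TL1A, a cytokine of the TNF family encoded by Tnfsf15, and from wild-type mice (WT). Mem mice overexpress a membrane-restricted TL1A that carries the deletion Delta 69-93, and Mem+Sol mice overexpress TL1A in both its membrane-bound and its soluble form. The label of the WT animals also speaks of TL1A under the CD2 promoter, a promoter of T cells, without saying which allele those animals carry; no age or treatment is given. The ileum gave 5 WT, 5 Mem and 6 Mem+Sol libraries of 1 sequencing batch, and the lung 5 WT, 5 Mem and 4 Mem+Sol libraries of 2 batches, with males and females in each group. No label ties a library to an animal of its own, so the p-values reflect only the spread between these libraries, which may be technical.

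A dividing cell passes an ordered program. In G1, cyclin E (Ccne1, Ccne2) and E2F1 commit the cell to copying its DNA. CDC6 and CDT1 load the MCM2-7 helicase onto origins, PCNA clamps the polymerases to DNA, and ribonucleotide reductase (Rrm1, Rrm2) and thymidylate synthase (Tyms) supply nucleotides. In G2 and mitosis CDK1 acts with cyclins A2, B1 and B2, the kinases PLK1, AURKA, AURKB, BUB1 and TTK and the kinesins build and check the spindle, CDC20 starts the exit, and FOXM1 drives many of these genes. In the ileum most dividing cells sit in the crypts, which renew the epithelium throughout life, while few cells of a healthy adult lung divide.

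Replication and mitosis members differed in how often their promoters held certain motifs, and 5 promoters chosen as examples are printed here. RefSeq promoters of build GRCm38.p6 were matched to 33 of the 40 members by symbol, in 35 windows of 250 bases before to 50 bases from the start. Mcm4, Ccne2, Ccna2, Aurkb, Kif20a, Tpx2 and Foxm1 were not matched. Both strands were searched for the cell cycle genes homology region (CHR; TTTGAA or TTCGAA), which the DREAM and MuvB complexes bind, for 4 forms of the E2F site (TTTCCCGC, TTTGGCGC, TTTCGCGC and TTTGCCGC) and for the NF-Y box (CCAAT). The lines below give the 160 bases before the start of 3 mitosis and 2 replication genes, 5′ to 3′ on the strand of the gene, with every match of these words in capitals. A match on the other strand reads as its reverse complement, and in Mcm5 and Mcm6 overlapping E2F words form 1 longer run of capitals.
Cdk1, chr10:69352913-69353072, minus strand: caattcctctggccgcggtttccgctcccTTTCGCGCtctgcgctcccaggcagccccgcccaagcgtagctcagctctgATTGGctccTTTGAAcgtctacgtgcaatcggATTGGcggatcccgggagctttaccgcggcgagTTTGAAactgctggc
Cdc20, chr4:118437344-118437503, minus strand: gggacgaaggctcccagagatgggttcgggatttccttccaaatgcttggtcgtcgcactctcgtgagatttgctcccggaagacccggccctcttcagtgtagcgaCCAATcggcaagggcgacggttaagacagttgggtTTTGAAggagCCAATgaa
Top2a, chr11:99024190-99024349, minus strand: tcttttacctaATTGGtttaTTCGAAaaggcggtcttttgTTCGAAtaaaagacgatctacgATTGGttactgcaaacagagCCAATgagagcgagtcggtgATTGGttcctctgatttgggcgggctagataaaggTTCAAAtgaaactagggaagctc
Mcm5, chr8:75109349-75109508, plus strand: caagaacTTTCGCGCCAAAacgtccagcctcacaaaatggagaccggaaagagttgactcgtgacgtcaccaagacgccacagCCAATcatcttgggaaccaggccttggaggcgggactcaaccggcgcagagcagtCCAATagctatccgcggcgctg
Mcm6, chr1:128359706-128359865, minus strand: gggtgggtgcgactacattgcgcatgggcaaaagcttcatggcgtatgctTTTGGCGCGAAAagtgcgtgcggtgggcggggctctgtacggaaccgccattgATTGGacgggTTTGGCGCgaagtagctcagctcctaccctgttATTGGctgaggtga

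The Cdk1 window carried CHR words centred at -68.5 and -12.5 bases from the start and an E2F word at -127.5. Cdc20 had a CHR word at -15.5 between NF-Y boxes, and Top2a had a row of CHR words and NF-Y boxes. Mcm5 and Mcm6 held E2F words and NF-Y boxes and no CHR word. Over all members, a CHR word was in 16 of 21 mitosis windows, 2 of 12 replication windows (Mcm2 and Mcm7) and 0 of 2 G1/S windows, against 19.2% of all 32851 windows of the table. An E2F word was in 6 of 12 replication windows, 1 of 21 mitosis windows (Cdk1) and 0 of 2 G1/S windows, against 2.26% of all windows. NF-Y boxes were in 17 of 21 mitosis, 9 of 12 replication and 0 of 2 G1/S windows, against 37.4%. These matches describe the letters of the windows and are not measured binding sites.

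**Figure D1:**
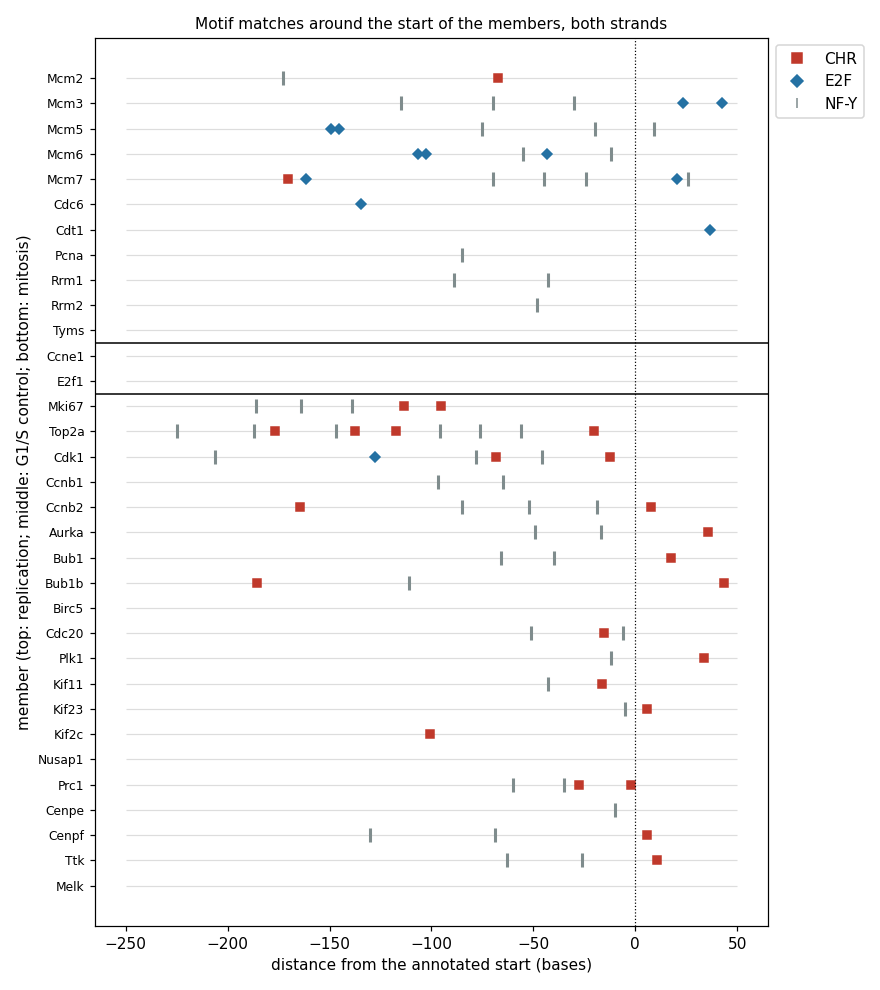
Position of each motif match (bases from the annotated start, horizontal axis) in the promoter windows of 33 members, with both windows of Mcm7 and of Prc1 on 1 line each. CHR matches (squares) sit mostly on the mitosis lines at the bottom and E2F matches (diamonds) mostly on the replication lines at the top.

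The totals of the lung libraries ran from 22259203 to 39089383 counts. In the ileum they ran from 4295039 to 13226790 in WT, from 10632559 to 32653753 in Mem and from 12482151 to 36133187 in Mem+Sol, so that WT was the shallowest group. The tissue labels fitted the marker genes: 8 lung epithelium genes summed to 45358 to 64444 CPM (counts scaled to the library total) in lung libraries and to at most 121 CPM in ileum libraries, and 8 ileum epithelium genes summed to at least 1970 CPM in ileum libraries and at most 3.61 CPM in lung libraries. Tnfsf15 had 4.49 to 9.92 CPM in WT lung, 20.2 to 24.5 CPM in Mem lung and 61.5 to 97.9 CPM in Mem+Sol lung. In the ileum its ranges overlapped (1.83 to 7.25, 3.64 to 5.42 and 4.55 to 10.2 CPM), so it checked the lung labels only. In ileum Mem+Sol replicates 4 and 6, both male, most members were below the other 4 libraries of the group, and the counts and medians of ileum Mem+Sol are given with and without them.

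All 40 members had higher fitted levels in WT ileum than in WT lung, although 2 of the differences did not pass the test. In a model of both tissues, 38 of 40 members were higher in the ileum by the quasi-likelihood test of edgeR, with p-values adjusted over all genes by the Benjamini-Hochberg method and a gene called at an adjusted p under 0.05. Of all genes tested 37.3% were higher there and 38.3% lower. The differences were larger for mitosis genes (median log2 3.50, from 1.89 for Bub1 to 4.88 for Plk1) than for replication genes (median 1.36). Plk1, the polo kinase of mitotic entry, was higher by 4.88 ± 0.27 (log2, SE) and Birc5, survivin of the chromosomal passenger complex, by 4.46 ± 0.26. Mcm4 (0.27 ± 0.16, edgeR adjusted p = 0.123) and Ccne2 (0.32 ± 0.31, edgeR adjusted p = 0.349) were not called. Tissue and sequencing batch coincide, so their parts in these differences cannot be told apart.

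Per kilobase of exon (GENCODE M21 gene models), the order of the levels also differed between the tissues. In WT ileum, Top2a, the topoisomerase that untangles chromosomes (38.8 CPM per kb), Cdc20 (36.0) and Plk1 (33.8) stood highest, and Ccne2 (0.880) lowest. In WT lung, Pcna (15.5 CPM per kb), Mcm4 (9.70) and Rrm1 (8.40), all replication genes, were highest, and Ccnb1, cyclin B1 (0.232), was lowest. Mki67, the gene of the proliferation marker Ki-67, had 14.7 CPM per kb in WT ileum and 2.19 in WT lung.

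In the lung, Mem mice had more RNA of nearly all members than WT mice, and mitosis genes more so than replication genes. Of the 40 members 34 rose and 0 fell, where 6.41% of all genes tested rose and 3.05% fell. All 25 mitosis genes rose (median log2 fold change 1.16), as did 7 of 12 replication genes (median over the 12 of 0.32) and 2 of 3 G1/S genes, while the median over all genes was -0.02. RNA of whole tissue does not tell more dividing cells from more of these RNAs per cell.

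Mki67 had 29.8, 42.1, 16.9, 9.90 and 22.9 CPM in WT lung replicates 1 to 5, 48.9, 77.8, 27.1, 71.1 and 31.8 CPM in Mem and 23.4, 30.0, 29.1 and 30.6 CPM in Mem+Sol. The WT and Mem ranges overlapped: Mem replicates 3 and 5 lay below WT replicate 2, the highest WT library. In the model with sex and sequencing batch the Mem effect was 1.00 ± 0.22 (log2, SE, edgeR adjusted p = 0.0128). Top2a had 21.0, 29.6, 14.5, 10.7 and 19.4 CPM in WT, 31.8, 58.8, 33.8, 70.5 and 40.8 CPM in Mem and 26.5, 27.2, 19.5 and 20.6 CPM in Mem+Sol. Every Mem library was above every WT and Mem+Sol library, and Top2a rose by 1.19 ± 0.19 (edgeR adjusted p = 0.00195).

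Cdk1, the kinase that drives entry into mitosis, showed the largest change of the members. It had 3.82, 4.96, 2.37, 1.77 and 3.45 CPM in WT, 6.62, 11.1, 8.72, 17.2 and 9.78 CPM in Mem and 5.50, 3.95, 3.08 and 3.67 CPM in Mem+Sol. The Mem libraries did not overlap the others, with a mean of 10.7 ± 3.98 CPM (SD, n = 5) against 3.27 ± 1.25 CPM (n = 5) in WT, and the rise was 1.59 ± 0.24 on the log2 scale (edgeR adjusted p = 0.0011). Plk1 rose by 1.16 ± 0.17 (edgeR adjusted p = 0.000861), from 2.33 to 3.63 CPM in WT to 4.61 to 9.88 CPM in Mem. Aurkb, the kinase of the chromosomal passenger complex, rose by 1.22 ± 0.18 (edgeR adjusted p = 0.0011). The rises of the other mitosis genes ran from 0.72 for Kif23, a kinesin of cytokinesis, to 1.32 for Melk. For 17 of the 25 mitosis genes the CPM of Mem and WT did not overlap, which held for 3.81% of all genes tested.

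**Figure D2:**
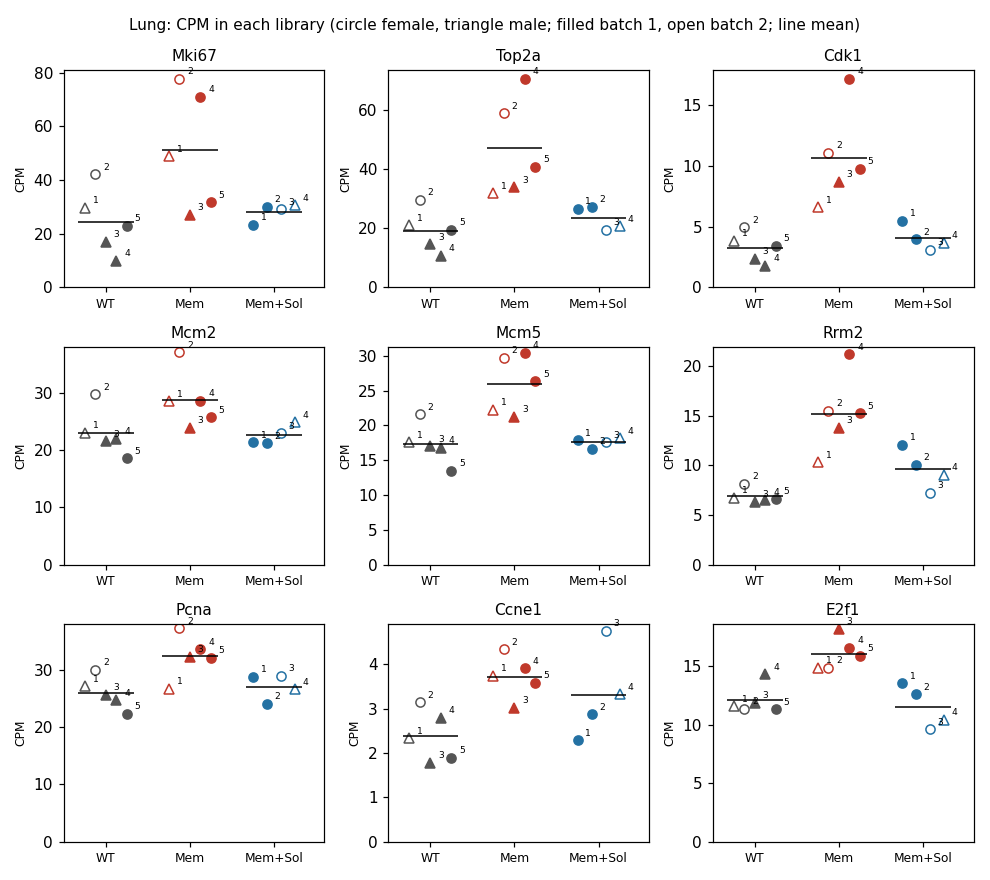
CPM of 9 members in each lung library (vertical axis) by genotype, with females as circles, males as triangles, batch 1 filled, batch 2 open and lines at the group means. Top2a, Cdk1, Rrm2 and E2f1 were higher in every Mem library than in every WT library, and Mki67 and Mcm2 overlapped.

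Among the replication genes the rise was largest for Rrm2, the regulated subunit of ribonucleotide reductase. It had 6.72, 8.14, 6.36, 6.52 and 6.66 CPM in WT, 10.3, 15.5, 13.8, 21.2 and 15.3 CPM in Mem and 12.1, 10.1, 7.22 and 9.07 CPM in Mem+Sol. All Mem libraries were above all WT libraries, and Rrm2 rose by 1.07 ± 0.15 (edgeR adjusted p = 0.000725). Its partner Rrm1 rose by 0.30 ± 0.08 (edgeR adjusted p = 0.041).

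Mcm5, a subunit of the replicative helicase, had 17.6, 21.6, 17.0, 16.8 and 13.5 CPM in WT, 22.2, 29.7, 21.2, 30.4 and 26.3 CPM in Mem and 17.8, 16.6, 17.6 and 18.2 CPM in Mem+Sol. Mem replicate 3 lay just below WT replicate 2, and the other 4 Mem libraries lay above all others. Mcm5 rose by 0.55 ± 0.11 (edgeR adjusted p = 0.00829). Within the same helicase Mcm3 rose by 0.41 ± 0.10, Mcm6 by 0.35 ± 0.10 and Mcm7 by 0.29 ± 0.08. Mcm2 had 23.0, 29.7, 21.5, 21.9 and 18.5 CPM in WT, 28.5, 37.0, 23.9, 28.6 and 25.7 CPM in Mem and 21.4, 21.2, 22.9 and 24.8 CPM in Mem+Sol, with an effect of Mem of 0.30 ± 0.09 (edgeR adjusted p = 0.0581) that missed the threshold. Mcm4 was at 0.04 ± 0.08 (edgeR adjusted p = 0.776), the smallest value of the 40 members.

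The sliding clamp Pcna had 27.1, 30.0, 25.6, 24.6 and 22.3 CPM in WT, 26.7, 37.2, 32.2, 33.5 and 32.1 CPM in Mem and 28.7, 24.0, 28.9 and 26.6 CPM in Mem+Sol. Its groups overlapped through Mem replicate 1, and its value of 0.30 ± 0.09 (edgeR adjusted p = 0.0579) also missed the threshold. Tyms rose by 0.46 ± 0.13 (edgeR adjusted p = 0.0407), and its reads can be shared with a pseudogene that has a row of its own. The origin-loading genes Cdc6 (0.49 ± 0.17, edgeR adjusted p = 0.0901) and Cdt1 (0.26 ± 0.11, edgeR adjusted p = 0.139) were not called.

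Of the G1/S genes, E2f1 rose by 0.42 ± 0.09 (edgeR adjusted p = 0.00772), with 11.6, 11.4, 11.9, 14.3 and 11.3 CPM in WT against 14.9, 14.9, 18.2, 16.6 and 15.9 CPM in Mem and 13.5, 12.6, 9.62 and 10.4 CPM in Mem+Sol. No Mem library overlapped WT or Mem+Sol. Ccne1 had 2.34, 3.15, 1.78, 2.80 and 1.89 CPM in WT, 3.74, 4.34, 3.02, 3.92 and 3.59 CPM in Mem and 2.29, 2.87, 4.76 and 3.32 CPM in Mem+Sol. It rose by 0.61 ± 0.17 (edgeR adjusted p = 0.0388), although Mem replicate 3 lay below WT replicate 2. Ccne2 was at 0.20 ± 0.16 (edgeR adjusted p = 0.451).

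Genes of the same processes outside the 40 members moved with them, where 6.41% of all genes tested rose and 3.05% fell. Of 46 other replication genes 17 rose and 0 fell, among them Uhrf1, which brings DNA methylation to new strands (0.94), Tk1, thymidine kinase (0.87), and Mcm10 (0.97). Of 48 other mitosis genes 36 rose and 0 fell, with Ube2c, the ubiquitin enzyme of the anaphase-promoting complex, at 1.62 and Cdca8 at 1.32. Of 12 genes of G1 entry, such as the D cyclins and Cdk4, 0 rose and 0 fell, with 4 at an unadjusted p under 0.05 by the same edgeR test. Among 20 cell cycle inhibitors only E2f7 (0.64) and E2f8 (0.67), repressors whose genes are transcribed in S phase, rose.

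Markers of T cells, macrophages and plasma cells were higher in the same lungs, again beside 6.41% of all genes tested that rose and 3.05% that fell. Of 9 T cell genes tested 8 rose (Cd4 by 1.18 ± 0.15), and their sum was 99.1 to 134 CPM in WT, 117 to 219 CPM in Mem and 144 to 197 CPM in Mem+Sol. Of 7 macrophage genes 4 rose (Cd68 by 1.05 ± 0.16), with sums of 396 to 434 CPM in WT, 491 to 624 CPM in Mem and 423 to 570 CPM in Mem+Sol. Plasma cell genes summed to 496 to 584, 635 to 1013 and 630 to 861 CPM, and 4 of 8 rose. Of 8 B cell and germinal centre genes tested 0 rose and Bcl6 fell, with a median of -0.15, and of 8 genes of cytotoxic lymphocytes 0 rose and 0 fell, with 1 at an unadjusted p under 0.05 by the edgeR test. Of 8 endothelial genes 2 fell in Mem, Tek and Kdr. No T cell, macrophage or plasma cell gene found in the table was at 0 in every library of a lung group, and the part of these cells in the rise of the members was not tested.

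The direction was the same in both sequencing batches, and the calls were not. In batch 1 (2 males and 1 female of WT, 1 male and 2 females of Mem) all 25 mitosis genes were higher in Mem, with a median of 1.45 and 22 called, and 3 replication genes were called. In batch 2, with 1 male and 1 female in each of these groups, all 25 were again higher, with a median of 0.73 and 0 called. The batch 1 fit held a sex term and the batch 2 fit did not. The share of all genes called was not kept for the single-batch fits, so these counts have no background beside them. Leaving out each library in turn left 23 to 35 members called, and 23 members (20 mitosis genes, Rrm2, Mcm5 and E2f1) were called each time. The 11 other calls, Ccne1, Mcm3, Mcm6, Mcm7, Rrm1 and Tyms among them, were lost without WT replicate 5, and most were lost without other libraries too. Of the 14 fits, Ttk was called in 3, Ccne1 and Mcm6 in 5, Mcm7, Rrm1 and Tyms in 6 and Kif20a in 7. Mcm3 and Cenpf were called in 11, Prc1 in 12 and Foxm1 in 13. Without the batch term 21 members were called.

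In the lung of Mem+Sol mice no member differed from WT by the edgeR test, where 0.523% of all genes tested rose and 0.321% fell. At an unadjusted p under 0.05 there was 1 replication gene, Rrm2 (0.40 ± 0.16, edgeR adjusted p = 0.236), and 0 mitosis genes, and DESeq2 also called 0. The median was 0.09 over replication genes and 0.14 over mitosis genes. Plk1 (0.33 ± 0.18), Ccnb1 (0.47 ± 0.28) and Nusap1, a spindle protein (0.30 ± 0.21), were the mitosis genes with the smallest p, and Mcm7 (0.17 ± 0.09) and Cdt1 (0.19 ± 0.12) followed Rrm2. The CPM of Mem+Sol and WT did not overlap for Plk1 alone of the 40 members, which held for 2.08% of all genes tested in that direction. Ccne1 was at 0.35 ± 0.19, Ccne2 at -0.32 ± 0.18 and E2f1 at -0.03 ± 0.10. The mitosis median was 0.44 in batch 1, with 2 females of Mem+Sol, and -0.21 in batch 2, with 1 female and 1 male. Of the T cell genes 1 of 9 passed the test here (Cd4, 0.95 ± 0.16), and 8 of 9 had an unadjusted p under 0.05.

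Set against Mem, the Mem+Sol lung had less RNA of many members. Of the 40 members 19 fell and 0 rose, where 1.37% of all genes tested fell and 0.862% rose. Of the mitosis genes 16 of 25 fell (median over the 25 of -0.97), of the replication genes Mcm5 and Rrm2 (median over the 12 of -0.27), and of the G1/S genes E2f1. This comparison and that of Mem with WT share the Mem libraries, so their values are not independent. Cdk1 fell by 1.45 (SE 0.25, edgeR adjusted p = 0.0172), Top2a fell by 1.07 (SE 0.20, edgeR adjusted p = 0.0233) and Kif23 fell by 0.70 (SE 0.13, edgeR adjusted p = 0.0236). Mcm5 fell by 0.60 (SE 0.12, edgeR adjusted p = 0.0265), Rrm2 fell by 0.67 (SE 0.15, edgeR adjusted p = 0.038) and E2f1 fell by 0.45 (SE 0.09, edgeR adjusted p = 0.0278). Mki67 was at -0.94 ± 0.23 (edgeR adjusted p = 0.052) and Tyms at -0.54 ± 0.14 (edgeR adjusted p = 0.0541), both just short of the threshold. Of 20 inhibitors Cdkn1b, p27, rose by 0.37 and E2f7 fell by 0.92, and of 48 other mitosis genes 22 fell and 0 rose.

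These calls depended on single libraries while the direction did not. All 25 mitosis genes were lower in Mem+Sol within batch 1 (median -1.07, 0 called) and within batch 2 (median -0.93, 8 called). The share of all genes called within a single batch was not kept here either. The number of members called was 0 without Mem replicate 2 or without Mem+Sol replicate 3, 9 without Mem replicate 3, 10 without Mem replicate 4, 11 without Mem+Sol replicate 1, 12 without Mem+Sol replicate 4 and 26 without Mem replicate 1. It was 3 without the sex term and 1 without the batch term. CPM of the groups did not overlap for 14 mitosis genes, 2 replication genes and 1 G1/S gene, which held for 1.74% of all genes.

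**Figure D3:**
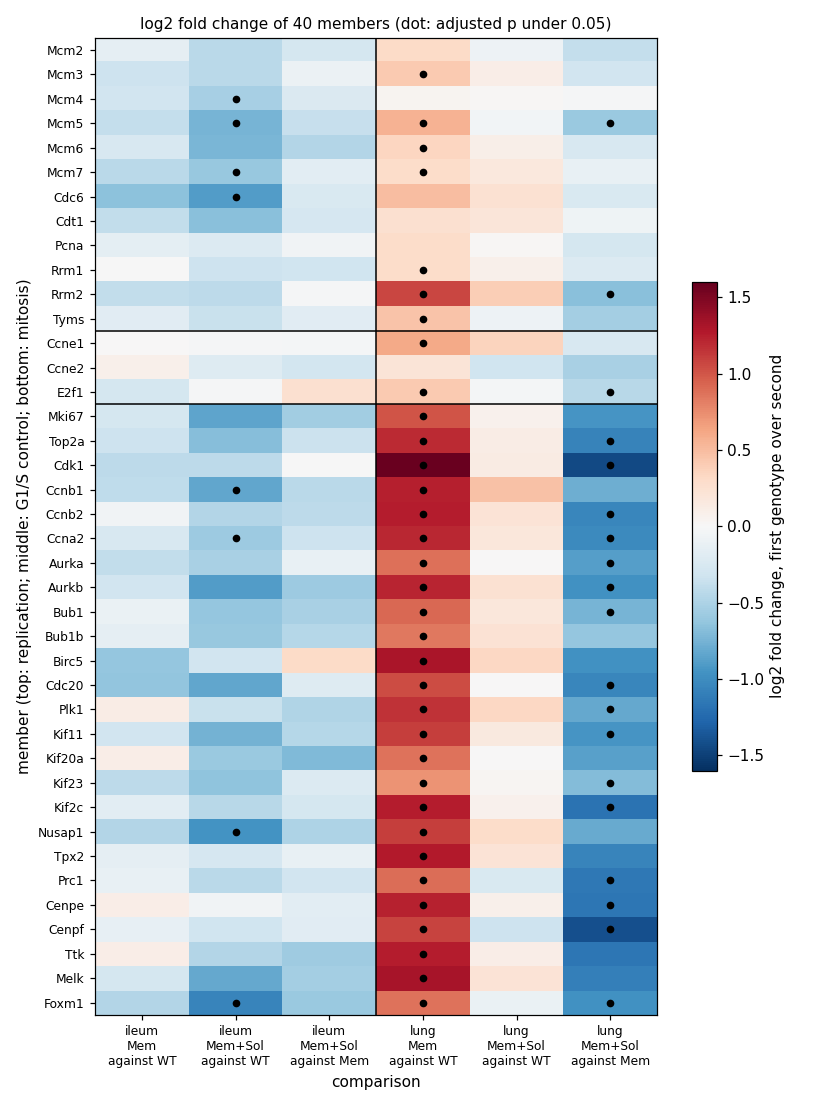
Fitted log2 fold change of the 40 members (rows) in the 6 comparisons within a tissue (columns), red for higher and blue for lower in the first genotype, with a dot where the edgeR adjusted p was under 0.05. Dots fill the mitosis rows for lung Mem against WT, 19 mark lung Mem+Sol against Mem, and 8 mark ileum Mem+Sol against WT.

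In the ileum no member was called between Mem and WT, where 5% of all genes tested rose and 3.06% fell. All 12 replication genes and 21 of 25 mitosis genes had negative values (medians -0.32 and -0.28), and 1 of each, Mcm7 and Birc5, had an unadjusted p under 0.05 by the edgeR test, while DESeq2 called 1 member. Mcm7 was at -0.43 ± 0.18 (edgeR adjusted p = 0.162), Cdc6 at -0.65 ± 0.32 and Rrm2 at -0.40 ± 0.24. Birc5 was at -0.62 ± 0.20 (edgeR adjusted p = 0.0673), Cdk1 at -0.41 ± 0.20 and Cdc20 at -0.63 ± 0.32. E2f1 was the one member whose CPM did not overlap, lower in every Mem than in every WT library (3.94% of all genes tested did so), and was at -0.28 ± 0.16, Ccne1 at 0.01 ± 0.22 and Ccne2 at 0.08 ± 0.38. Leaving out Mem replicate 1 or WT replicate 5 gave 1 call each.

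In the ileum of Mem+Sol mice 8 of 40 members fell against WT and 0 rose, where 12.1% of all genes tested fell and 16.6% rose. They were the replication genes Mcm4, Mcm5, Mcm7 and Cdc6 and the mitosis genes Ccna2, Ccnb1, Nusap1 and Foxm1. All 12 replication genes (median -0.48) and all 25 mitosis genes (median -0.60) had negative values, against a median of 0.01 over all genes. For 35 of the 40 members, all but Pcna, Ccne1, Ccne2, E2f1 and Birc5, Mem+Sol replicates 4 and 6 were the lowest libraries of their group.

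Mcm5 had 52.8, 49.996, 68.3, 44.8 and 49.7 CPM in WT, 45.3, 32.4, 43.6, 48.0 and 39.3 CPM in Mem, and from 20.4 over a median of 32.1 to 46.6 CPM in Mem+Sol. The groups overlapped, with Mem+Sol replicates 4 and 6 lowest at 20.5 and 20.4 CPM and replicate 5 next. Mcm5 fell by 0.74 (SE 0.23, edgeR adjusted p = 0.0217). Mcm7 fell by 0.60 (SE 0.18, edgeR adjusted p = 0.0196), Mcm4 fell by 0.53 (SE 0.19, edgeR adjusted p = 0.0435) and Cdc6 fell by 0.90 (SE 0.32, edgeR adjusted p = 0.0429). Mcm2 had 39.9, 39.1, 54.3, 32.7 and 38.9 CPM in WT, 44.0, 30.8, 39.5, 37.0 and 36.1 CPM in Mem, and from 18.5 over 30.0 to 43.3 CPM in Mem+Sol. Its groups overlapped, and its value of -0.43 ± 0.21 (edgeR adjusted p = 0.128) was not called. Pcna had 20.1, 23.6, 34.8, 26.2 and 47.1 CPM in WT, 21.1, 23.4, 30.1, 32.6 and 31.6 CPM in Mem, and from 18.5 over 26.7 to 36.7 CPM in Mem+Sol, with no separation of the groups (-0.21 ± 0.24, edgeR adjusted p = 0.529).

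Of the mitosis genes, Foxm1 fell by 1.06 (SE 0.36, edgeR adjusted p = 0.0356), from 19.5 to 39.8 CPM in WT to 6.17 to 22.9 CPM in Mem+Sol. Nusap1 fell by 0.96 (SE 0.33, edgeR adjusted p = 0.0363), Ccna2, cyclin A2, fell by 0.58 (SE 0.20, edgeR adjusted p = 0.0387) and Ccnb1 fell by 0.83 (SE 0.30, edgeR adjusted p = 0.0478). Only for Nusap1 did the CPM of WT and Mem+Sol not overlap, which held for 5.97% of all genes.

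Mki67 had 146, 136, 190, 85.7 and 123 CPM in WT, 107, 102, 111, 134 and 142 CPM in Mem, and 128, 117, 118, 35.5, 94.3 and 24.0 CPM in Mem+Sol replicates 1 to 6. Replicates 4 and 6 of Mem+Sol stood below every other ileum library, and the other 4 lay within the WT range of 85.7 to 190 CPM. Its value against WT was -0.84 ± 0.35 (edgeR adjusted p = 0.0834). Top2a had 186, 173, 232, 179 and 162 CPM in WT, 190, 128, 132, 152 and 161 CPM in Mem, and from 51.3 over 146 to 178 CPM in Mem+Sol, at -0.68 ± 0.29 (edgeR adjusted p = 0.0896). Cdk1 had 31.1, 33.9, 42.7, 43.3 and 38.3 CPM in WT, 29.0, 25.6, 27.7, 32.6 and 32.0 CPM in Mem, and from 19.5 over 27.1 to 47.9 CPM in Mem+Sol, at -0.42 ± 0.20 (edgeR adjusted p = 0.125). The highest Cdk1 library of the ileum was Mem+Sol replicate 5.

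In Mem+Sol replicates 4 and 6 the transcription factor gene E2f1 was at 10.7 and 14.1 CPM. The other Mem+Sol libraries ran from 10.4 to 13.7 CPM, and WT from 11.2 to 14.6 CPM. Ccne1 had 4.82, 6.48, 8.86, 6.09 and 6.68 CPM in WT, 8.25, 7.21, 5.45, 5.90 and 5.33 CPM in Mem, and from 4.54 over 6.11 to 8.05 CPM in Mem+Sol. Against WT, E2f1 and Ccne1 were both at -0.02 and Ccne2 at -0.21 ± 0.37. Birc5 was the one mitosis gene for which replicates 4 and 6 were not the lowest libraries of the group. They were at 36.7 and 47.5 CPM, against 30.9 to 52.2 CPM in the other Mem+Sol libraries.

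**Figure D4:**
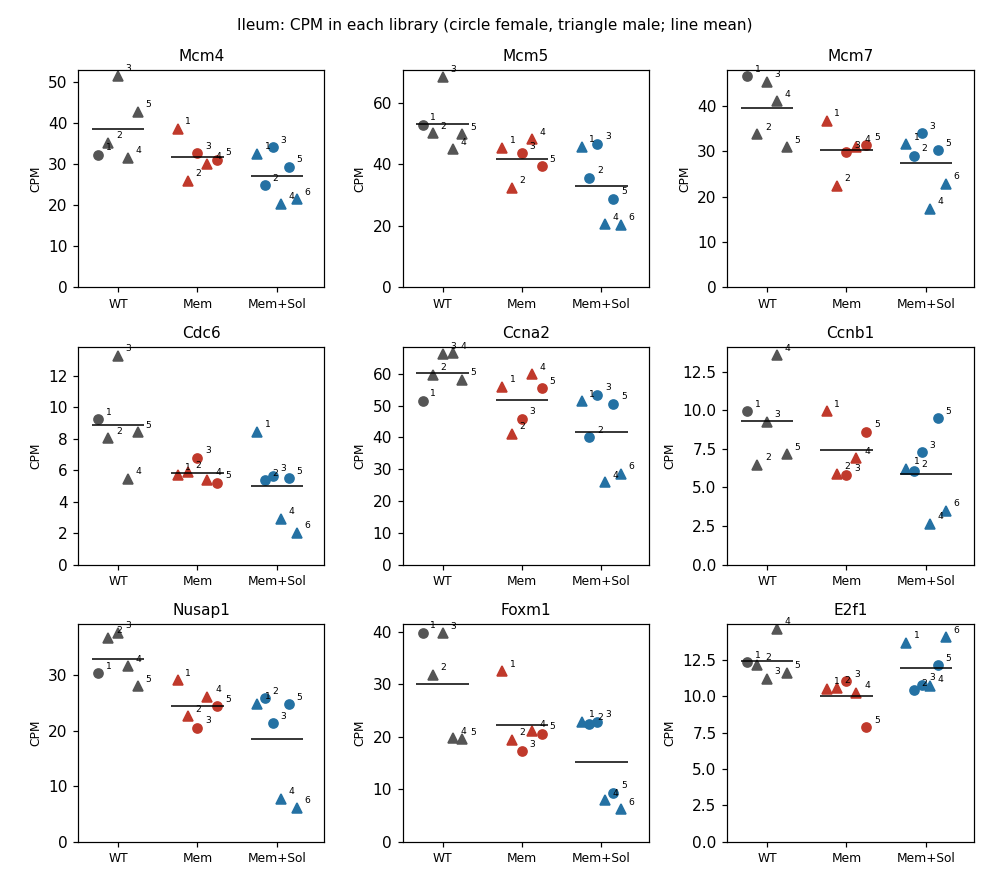
CPM of the 8 called members and of E2f1 in each ileum library (vertical axis) by genotype, with females as circles, males as triangles, replicate numbers beside the points and lines at the group means. Mem+Sol replicates 4 and 6 are the lowest libraries for most members but not for E2f1.

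Markers of smooth muscle and of intestinal stem cells set replicates 4 and 6 apart as well. Smooth muscle genes summed to 2164 to 4861 CPM in WT, 7507 to 12729 CPM in Mem and 10659 to 50796 CPM in Mem+Sol, all 8 rose in Mem+Sol against WT, and the highest sums were those of replicate 4 (32792 CPM) and replicate 6 (50796 CPM). Genes of intestinal stem cells, the dividing cells at the crypt base, summed to 214 CPM in replicate 4 and 284 CPM in replicate 6, the lowest of all ileum libraries, against 405 to 690 CPM in WT. Of 8 such genes Axin2 fell by 1.44 and Lgr5 fell by 1.07, while Smoc2 rose by 0.67. Of all genes tested 12.1% fell and 16.6% rose in Mem+Sol against WT. Of 8 ileum epithelium genes 6 fell, and Fabp6, the bile acid carrier of the ileum, fell by 4.12, with sums of 10544 to 22999 CPM in WT and 1970 to 3727 CPM in Mem+Sol. Endothelial genes summed to 65.1 to 182 CPM in WT and 249 to 351 CPM in Mem+Sol, and 6 of 8 rose. The ileum epithelium and endothelium sums differed between the groups, but those of replicates 4 (2456 and 281 CPM) and 6 (2388 and 284 CPM) lay within the range of the other 4 Mem+Sol libraries. Other lists separated the 2 libraries from each other. General epithelium genes summed to 15460 CPM in replicate 4, the highest Mem+Sol library, and to 7937 CPM in replicate 6, the lowest ileum library. Plasma cell genes summed to 1513 and 677 CPM in replicates 4 and 6, and B cell and germinal centre genes to 128 and 66.7 CPM. Without these 2 libraries all 8 smooth muscle genes still rose against WT, and 4 of 8 endothelial genes rose. In that fit 4 of 8 ileum epithelium genes fell (Fabp6 was at -3.82, edgeR adjusted p = 0.0519), and of the stem cell genes Axin2 fell. Beside these, 5.07% of all genes tested fell and 6.76% rose. None of the smooth muscle, stem cell, ileum epithelium and endothelial genes was at 0 in every library of a group. The part of the tissue makeup in the lower member levels was not tested.

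Without Mem+Sol replicates 4 and 6, a choice made after their values were seen, 0 members were called against WT by edgeR, with 2 at an unadjusted p under 0.05, and the medians were -0.20 over replication genes and -0.18 over mitosis genes. Of all genes tested in that fit 5.07% fell and 6.76% rose. The number of members called was 0 without Mem+Sol replicate 4, 0 without Mem+Sol replicate 6 and 0 without WT replicate 3. It was 21 without Mem+Sol replicate 1, 3 without WT replicate 2, and 5 each without WT replicate 4, Mem+Sol replicate 2 or Mem replicates 2, 4 or 5. DESeq2 called 13 members, and a fit of only the 2 genotypes called 4.

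Among other genes of the 2 processes, set beside 12.1% of all genes tested that fell, 8 of 46 replication genes fell and 0 rose, among them Tk1, which fell by 1.07, the primase gene Prim1, which fell by 1.00, and Pola1, which fell by 0.92. Of 48 other mitosis genes 3 fell (Kif18b, Sgol1 and Cdca5) and 0 rose. Of the G1 entry genes Cdc25a fell by 0.59 and E2f3 fell by 0.81. Of the inhibitors Rb1, Rbl1 and Cdkn2b fell and Cdkn2a rose by 1.36. Without Mem+Sol replicates 4 and 6, where 5.07% of all genes tested fell, 0 other replication genes, 0 other mitosis genes and 0 G1 entry genes were called by edgeR, with 3, 0 and 2 at an unadjusted p under 0.05. The 1 inhibitor gene then called was Rb1, and Cdkn2a was at 1.31 (edgeR adjusted p = 0.156).

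Between Mem+Sol and Mem ileum 0 members were called, where 0.0134% of all genes tested rose and 0% fell, and 1 member, Ttk, had an unadjusted p under 0.05 by the edgeR test, with DESeq2 calling 0. Ttk, the spindle checkpoint kinase, was at -0.57 ± 0.22 (edgeR adjusted p = 0.388), Plk1 at -0.48 ± 0.25 and Kif20a at -0.70 ± 0.37. Mcm6 was at -0.47 ± 0.27, Mcm5 at -0.37 ± 0.22, Rrm1 at -0.32 ± 0.22 and E2f1 at 0.26 ± 0.15. The medians were -0.24 over replication genes and -0.42 over mitosis genes, and without Mem+Sol replicates 4 and 6 they were 0.04 and 0.02.

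**Figure D5:**
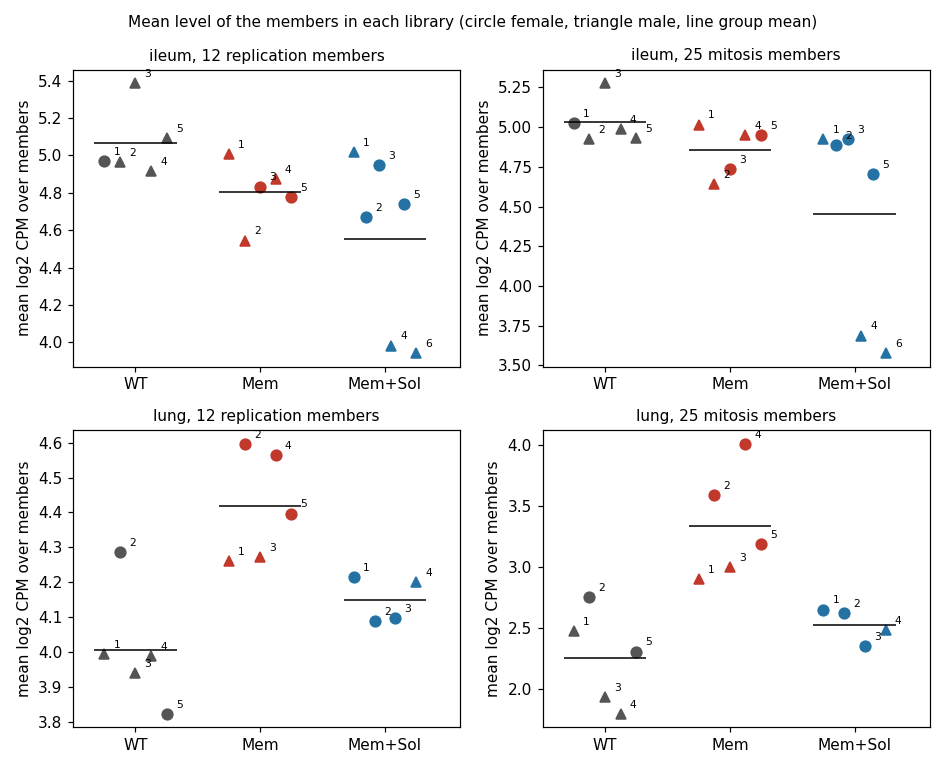
Mean log2(CPM + 0.5) over the 12 replication members and over the 25 mitosis members in each library (vertical axis, scaled per panel) by tissue and genotype, with females as circles, males as triangles and lines at the group means. Ileum Mem+Sol replicates 4 and 6 lie at 3.69 and 3.58 for mitosis, against 4.71 to 4.93 in the other 4, and the lung Mem libraries lie at 2.90 to 4.01, against 1.79 to 2.75 in WT.

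The effect of Mem differed between the tissues for many members. In the model of both tissues, 22 of 40 members had a higher Mem effect in the lung than in the ileum and 0 a lower one, where 3.56% of all genes tested were higher and 4.67% lower. They were 18 mitosis genes, 3 replication genes (Rrm2, Mcm5 and Mcm7) and E2f1. The difference was largest for Cdk1 (2.00 ± 0.33, edgeR adjusted p = 0.000548) and Birc5 (1.92 ± 0.32, edgeR adjusted p = 0.000751), and Rrm2 led the replication genes (1.45 ± 0.30, edgeR adjusted p = 0.00435). Mki67 (1.27 ± 0.45, edgeR adjusted p = 0.0753), Mcm2 (0.44 ± 0.25), Pcna (0.46 ± 0.28) and Ccne1 (0.59 ± 0.28) were not called. Without lung WT replicate 5, 11 members were called. Without ileum Mem+Sol replicates 4 and 6, 29 were called, where 5.11% of all genes tested were higher and 6.54% lower. Mem+Sol libraries are not part of this contrast and enter it only through the shared fit. T cell genes also had a higher Mem effect in the lung (5 of 9) and smooth muscle genes a lower one (5 of 8). Median Tnfsf15 was 8.49 CPM in WT and 23.0 CPM in Mem lung, and 5.21 CPM in WT and 5.05 CPM in Mem ileum. The part of this in the tissue difference was not tested. Such a difference includes the ileum side. T cell genes summed to 46.1 to 152 CPM in WT ileum and 22.5 to 71.1 CPM in Mem ileum. Genes of cytotoxic lymphocytes summed to 47.4 to 247 CPM in WT ileum and 12.4 to 46.1 CPM in Mem ileum.

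For Mem+Sol the tissues differed for 4 members, all higher in the lung, where 6.55% of all genes tested were higher and 11.6% lower. They were Mcm7 (0.78 ± 0.22, edgeR adjusted p = 0.0144), Cdc6 (1.15 ± 0.40, edgeR adjusted p = 0.0435), Ccnb1 (1.32 ± 0.44, edgeR adjusted p = 0.0379) and Nusap1 (1.27 ± 0.43, edgeR adjusted p = 0.0395). The count was 0 without lung Mem+Sol replicate 4 and 18 without ileum Mem+Sol replicate 1. Without ileum Mem+Sol replicates 4 and 6 together it was 0 by edgeR, with 4 at an unadjusted p under 0.05. In that fit 3.88% of all genes tested were higher and 6.53% lower. The count was 1 without ileum Mem+Sol replicates 4 or 6, ileum WT replicate 3, lung Mem+Sol replicates 1 or 2 or lung WT replicate 5. It was 2 without ileum WT replicates 2 or 4 or lung WT replicates 2, 3 or 4. Tissue and sequencing batch coincide here as well.

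The members also varied together between libraries of 1 group. Over residuals of the models, the median correlation of pairs of mitosis genes was 0.77 in the ileum (n = 16 libraries) and 0.82 in the lung (n = 14), and of pairs of replication genes 0.72 and 0.62. Pairs of 1 replication and 1 mitosis gene had a median of 0.71 over ileum libraries and 0.44 over lung libraries. Without ileum Mem+Sol replicates 4 and 6 the ileum medians were 0.32 for mitosis pairs, 0.46 for replication pairs and 0.33 between the 2 groups (n = 14 libraries). As means, mitosis pairs stood at 0.68 in the ileum and 0.79 in the lung, and replication pairs at 0.66 and 0.58. The mean over all pairs of genes tested was near 0 in both tissues (0.00141 and 0.00222). In that signed mean positive and negative pairs cancel, so it does not show how other groups of related genes vary. The pairs share libraries and depth, and all these correlations describe them without a test.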

How the data were processed

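RNA of terminal ileum (16 libraries) and post-caval lung lobe (14 libraries), kept in RNAlater, was made into poly-A libraries, per the labels' protocols. Counts per gene were deposited by the authors as whole numbers. The submitters' processing notes name CASAVA, TopHat2 and build mm10; the sources used here name no counting tool, annotation or use of strand, so reads of overlapping genes cannot be told apart. The members, the gene lists and the tests were chosen with earlier results of these data known.

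Genes were filtered with filterByExpr (14959 tested in the ileum, 15885 in the lung, 16867 over both tissues) and tested with the robust quasi-likelihood test of edgeR 4.0.16 in R 4.3.3, after TMM scaling. The model held genotype and sex in the ileum and also sequencing batch in the lung; the model of both tissues held the 6 groups, sex within tissue and lung batch. A gene was called at a Benjamini-Hochberg adjusted p under 0.05. Standard errors are the log2 fold change divided by the root of F. CPM use TMM-scaled totals, and means of log2 CPM a pseudocount of 0.5. The code was tested on simulated data. Alternatives were DESeq2 1.42.0, other scaling, filters and model terms, thinning, single batches and left-out libraries.

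Mki67, Top2a, Cdk1, Mcm2, Mcm5, Pcna and Ccne1 were named throughout. In each comparison the 3 members of each group with the smallest p and the called members (by range where over 10) were added, and from each other list up to 4 called genes by adjusted p. No 2 libraries of a group agreed within sampling noise (lowest chi-square per gene 12.4).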

Additional observations from a re-analysis of the deposited data

Results flagged for a closer look

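In 13 of 141 groups of libraries, 1 library lay far from the rest of its group by Dixon's criterion, which flags about 5% of groups by chance; the groups share libraries and are not independent. In the ileum these were Birc5 at 78.0 CPM in WT replicate 4 (highest, next 51.0 CPM), Cdc20 at 64.9 CPM in Mem replicate 1 (highest, next 33.6 CPM), E2f1 at 7.86 CPM in Mem replicate 5 (lowest, next 10.2 CPM), Foxm1 at 32.5 CPM in Mem replicate 1 (highest, next 21.1 CPM), Rrm2 at 33.3 CPM in Mem replicate 1 (highest, next 20.8 CPM) and Ttk at 7.03 CPM in Mem replicate 2 (lowest, next 9.47 CPM). The mean log2 CPM of the mitosis members was 5.28 in ileum WT replicate 3, with the next library at 5.02. In the lung they were Ccne2 at 2.77 CPM in Mem+Sol replicate 3 (highest, next 2.04 CPM), Cdt1 at 13.1 CPM in WT replicate 4 (highest, next 10.5 CPM), E2f1 at 14.3 CPM in WT replicate 4 (highest, next 11.9 CPM), Mcm3 at 42.2 CPM in Mem replicate 2 (highest, next 34.4 CPM), Mcm7 at 21.2 CPM in Mem+Sol replicate 1 (highest, next 17.7 CPM) and Rrm2 at 8.14 CPM in WT replicate 2 (highest, next 6.72 CPM).

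The Mem effect differed between lung and ileum by the interaction test of edgeR, always higher in the lung, for Cdk1 (2.00), Birc5 (1.92), Cdc20 (1.67), Ccnb1 (1.66), Melk (1.598), Nusap1 (1.57), Top2a (1.52), Rrm2 (1.45), Ccna2 (1.45), Kif2c (1.42), Tpx2 (1.42), Kif11 (1.40), Ccnb2 (1.30), Aurka (1.27), Cenpf (1.22), Kif23 (1.14), Cenpe (1.12), Plk1 (1.03), Prc1 (1.02), Mcm5 (0.92), Mcm7 (0.71) and E2f1 (0.70) on the log2 scale. The effect of Mem+Sol differed for Ccnb1 (1.32), Nusap1 (1.27), Cdc6 (1.15) and Mcm7 (0.78). Tissue and sequencing batch cannot be told apart in these differences.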

How the results depend on the processing

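Leaving out each library in turn moved the number of called members between 0 and 1 for ileum Mem against WT, 0 and 21 for ileum Mem+Sol against WT, 0 and 26 for lung Mem+Sol against Mem, 11 and 27 for the tissue difference of the Mem effect and 0 and 18 for that of Mem+Sol. For ileum Mem against WT, DESeq2 called 1 member, and so did the fit without Mem replicate 1 and WT replicate 2. For ileum Mem+Sol against WT, DESeq2 called 13, a fit of only these genotypes 4, and the fit without Mem+Sol replicates 4 and 6, added after the data were seen, 0, with a mitosis median of -0.18 and, against Mem, of 0.02. That choice also gave 0 calls for the tissue difference of Mem+Sol and 29 for that of Mem, where 5.11% of all genes tested were higher. For lung Mem against WT, 21 were called without the batch term and 0 in batch 2 alone. For lung Mem+Sol against Mem, 3 were called without the sex term, 1 in a fit of only these genotypes, 1 without the batch term, 0 in batch 1 alone and 9 in batch 2 alone. The mitosis median of lung Mem+Sol against WT was 0.44 in batch 1 and -0.21 in batch 2. The cause of these changes was not tested. The share of all genes called was not kept for these alternative fits, other than those without ileum Mem+Sol replicates 4 and 6. Residuals of same-numbered libraries correlated from -0.35 to 0.55 in the ileum and from -0.32 to 0.35 in the lung. The correlation was over 0.1 for 8 of 15 ileum pairs and 5 of 13 lung pairs. Libraries of different numbers were not compared, so these values cannot decide whether the replicate numbers mark pairs. The replicate block called 3 members for ileum Mem+Sol against WT.

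Of 2020 values of named members under the alternatives, 1756 kept their direction and their side of the threshold. Another 154 were no longer called and 27 became called. Only values called in the main model could be lost, and most of the 2020 were not called there. The 154 lost were 79 for ileum Mem+Sol against WT, 44 for lung Mem+Sol against Mem and 31 for lung Mem against WT. A further 83 turned direction, 0 of these with an adjusted p under 0.05 by the tool of that alternative. The values that turned were as follows. With DESeq2, Cdk1 stood at 0.00088 for ileum Mem+Sol against Mem. With relative log expression scaling, Cdk1 stood at 0.0028 for ileum Mem+Sol against Mem. Without the sex term, Ccne1 stood at -0.036 for ileum Mem against WT, and Cdk1 at 0.033 for ileum Mem+Sol against Mem, and Mcm5 at 0.017 for lung Mem+Sol against WT. In fits of only the 2 genotypes, E2f1 stood at 0.012 for ileum Mem+Sol against WT, and Mcm5 at 0.011 for lung Mem+Sol against WT. With the replicate block, Ccne1 stood at 0.19, Ccne2 at 0.14, Pcna at 0.087 for ileum Mem+Sol against WT, and Ccne1 at 0.10, Cdk1 at 0.056, Pcna at 0.10 for ileum Mem+Sol against Mem, and Cdk1 at -0.036, Mki67 at -0.071, Pcna at -0.061 for lung Mem+Sol against WT. With libraries thinned to the smallest total, Ccne1 stood at -0.014, Ccne2 at -0.050 for ileum Mem against WT, and Ccne1 at 0.024, Ccne2 at 0.024, E2f1 at 0.084 for ileum Mem+Sol against WT, and Ccne1 at 0.038, Ccne2 at 0.074 for ileum Mem+Sol against Mem. Without ileum Mem replicate 1 and WT replicate 2, Ccne1 stood at -0.086 for ileum Mem against WT, and Ccne1 at 0.040, Cdk1 at 0.0082 for ileum Mem+Sol against Mem. Without ileum Mem+Sol replicates 4 and 6, Ccne1 stood at 0.23 for ileum Mem+Sol against WT, and Ccne1 at 0.18, Cdk1 at 0.19, Pcna at 0.090, Top2a at 0.086 for ileum Mem+Sol against Mem. In lung batch 1 alone, E2f1 stood at 0.19, Mcm2 at 0.059, Mcm5 at 0.0998 for lung Mem+Sol against WT. In lung batch 2 alone, Cdk1 stood at -0.38, Mki67 at -0.27, Pcna at -0.038, Top2a at -0.33 for lung Mem+Sol against WT, and Ccne1 at 0.0052 for lung Mem+Sol against Mem. Over the libraries left out in turn, Ccne1 ranged from -0.080 to 0.13, Ccne2 from -0.13 to 0.53, Pcna from -0.38 to 0.052 for ileum Mem against WT; Ccne1 from -0.11 to 0.069, Cdk1 from -0.16 to 0.10, Pcna from -0.16 to 0.044 for ileum Mem+Sol against Mem; Ccne1 from -0.14 to 0.098, Ccne2 from -0.42 to 0.23, E2f1 from -0.066 to 0.039 for ileum Mem+Sol against WT; Cdk1 from -0.028 to 0.29, E2f1 from -0.081 to 0.028, Mcm5 from -0.17 to 0.043, Mki67 from -0.077 to 0.20, Pcna from -0.070 to 0.062, Top2a from -0.0021 to 0.26 for lung Mem+Sol against WT.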
